A study of Mus musculus with 2 samples.

Results

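The genes described here encode the enzymes that write, erase and read acetyl and methyl groups on chromatin, together with the ATP-driven remodelling proteins that move nucleosomes. They were chosen by symbol as the protein-coding genes named Hdac, Sirt, Smarc, Brd, Dnmt, Tet, Ezh, Kat or Kmt with the usual number or letter, plus Ep300 and Crebbp. The rule gave 66 of the 22028 protein-coding genes and of 55536 mouse genes in all. Total RNA of whole hearts was sequenced from 2 female B6CASTF1/J mice, first-generation hybrids of the C57BL/6J and CAST/EiJ strains, at 36 days of age. The labels name no treatment, and the mice form 1 group, so the data give levels and the spread between hearts and no contrast between conditions. The labels give the libraries as biological replicates 2 (animal 4) and 1 (animal 3) with a biosample each but a shared donor identifier. The input was 300 ng of total RNA per library, to which ERCC spike-ins, synthetic RNAs of known amount, had been added.

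Acetylation of histone lysines loosens chromatin and is read by bromodomains, and deacetylases remove it. Histone methylation marks active or silent genes according to the residue, and DNA methylation on CG dinucleotides accompanies silencing. In the heart, the class IIa deacetylases are known as repressors of MEF2-driven growth genes, and SWI/SNF complexes are required for cardiac development.

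The libraries held 38332179 expected counts in replicate 2 and 39053339 in replicate 1, where an expected count is an estimated number of reads per gene. The authors deposited 2 quantifications of the same reads, and levels are from the first unless the second is named. Defining genes of cardiomyocytes summed to 20630 TPM in replicate 2 and 20707 TPM in replicate 1, with all 5 markers detected. TPM is a transcript abundance that is corrected for length and sums alike in each library. Markers of endothelium, fibroblasts, smooth muscle and macrophages were all detected, at sums between 31.3 and 216 TPM in each library. None of the 3 skeletal muscle and 3 thymocyte markers reached 1 TPM in both libraries. Erythroid markers differed between the hearts, with 7893 TPM in replicate 2 and 24335 TPM in replicate 1, as did brown adipocyte markers, with 29.7 TPM in replicate 2 and 94.6 TPM in replicate 1. Spike-ins took 0.427% of counts in replicate 2 and 0.532% in replicate 1.

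Nearly all of the chromatin genes were present in the heart at moderate levels. At least 1 TPM in both libraries, called detected below, was reached by 62 of 66 (93.9%), against 11055 of 22028 protein-coding genes (50.2%). The detected members had a median level of 10.3 TPM, and all detected protein-coding genes one of 8.73 TPM. Their range was narrow: the 10th and 90th percentiles were 4.39 and 27.1 TPM, against 2.03 and 49.7 TPM for detected protein-coding genes. Of the members, 11 lay between 1 and 5 TPM, 33 at or above 10 TPM, 14 at or above 20 TPM and 2 at or above 40 TPM. Together the 66 genes took 0.251% of mouse counts in replicate 2 and 0.255% in replicate 1. In whole tissue, fewer cells of a type and less RNA per cell cannot be told apart. Levels below are means over both libraries ± SD, n = 2.

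**Figure D1:**
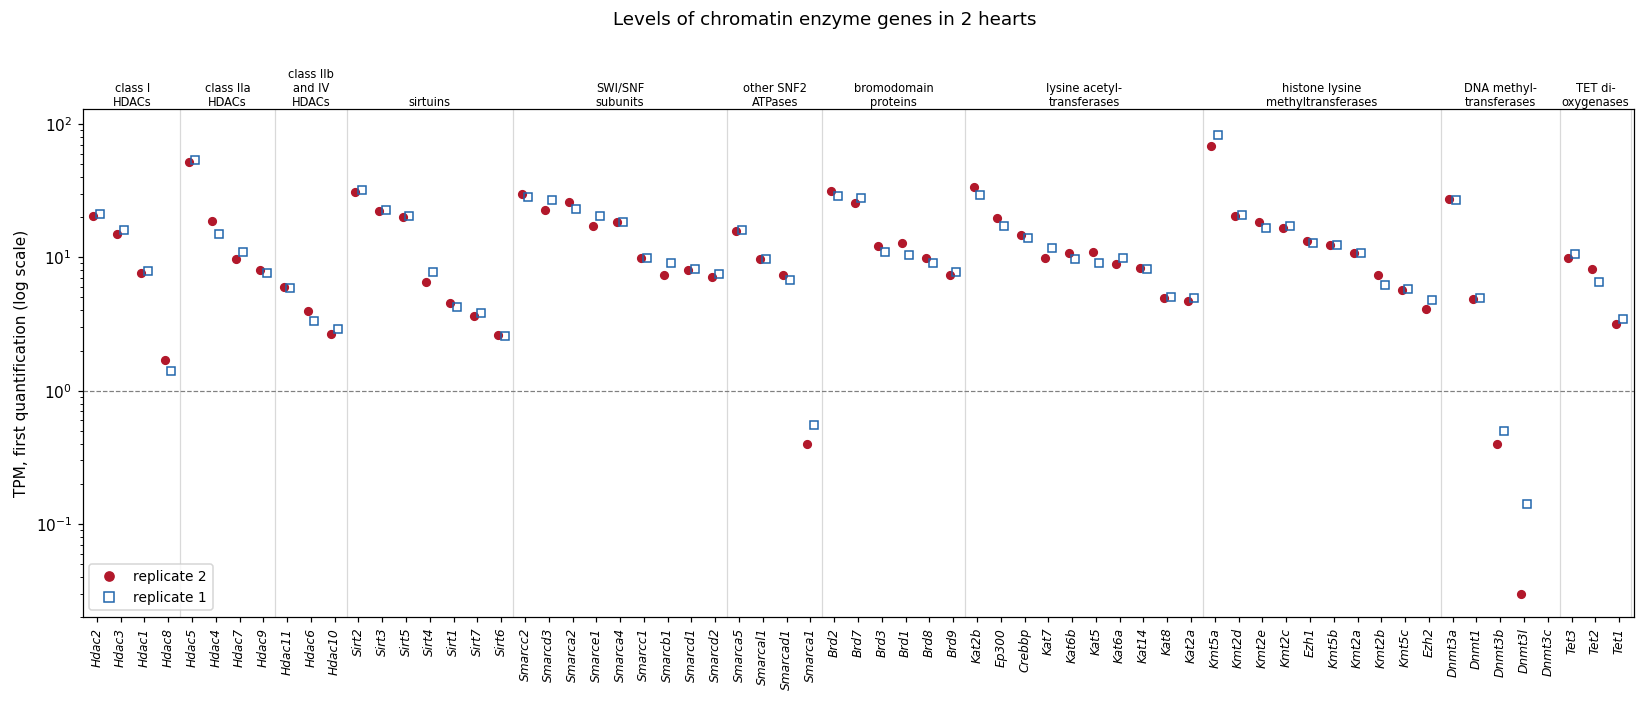
Levels of the genes in TPM of the first quantification, on a log scale, by family, with replicate 2 as filled circles and replicate 1 as open squares; the dashed line marks 1 TPM. Kmt5a and Hdac5 stood above 40 TPM, Smarca1, Dnmt3b and Dnmt3l lay under 1 TPM, and Dnmt3c, listed at 0 in both libraries, has no point.

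Among the class I deacetylases, most of which are catalytic subunits of nuclear corepressor complexes, Hdac2 was highest, with 20.4 TPM in replicate 2 and 20.98 TPM in replicate 1. Hdac3, the NCoR partner, followed at 15.5 ± 0.665 TPM, and Hdac1, which shares its complexes with Hdac2, at 7.78 ± 0.233 TPM. Hdac2 thus held 72.7 ± 0.195% of the TPM of the Hdac2 and Hdac1 pair. Hdac8, which deacetylates cohesin, was the lowest detected member of all, with 1.69 TPM in replicate 2 and 1.40 TPM in replicate 1, from 95 counts in replicate 2 and 81 in replicate 1. Of the 31-base words in Hdac1 transcripts, 40.02% also occur in other genes, chiefly in the processed pseudogene Gm10093 at 1.65 TPM, so its level is uncertain.

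The class IIa deacetylases bind MEF2 and leave the nucleus when phosphorylated. Hdac5 was the highest of this class in gene TPM, with 51.5 TPM in replicate 2 and 53.3 TPM in replicate 1, and ranked 1034th among protein-coding genes (ENSMUSG00000008855.17, chromosome 11, 102194432 to 102230166, minus strand, mm10). Hdac4 had 18.8 TPM in replicate 2 and 14.9 TPM in replicate 1. That was the widest difference in TPM of any detected member in the first quantification, at 1.26-fold. The second gave Hdac4 19.96 TPM in replicate 2 and 20.2 TPM in replicate 1. Hdac7, best known from endothelium, averaged 10.4 ± 0.926 TPM. Hdac9 had 8.06 TPM in replicate 2 and 7.66 TPM in replicate 1 and was lowest of the class by gene TPM. It held 43.2 ± 3.08% of the pair with Hdac7. Hdac5 held 75.7 ± 3.45% of the pair with Hdac4 and 66.5% in the second quantification. Over transcripts annotated as protein-coding alone, however, the first quantification gave Hdac5 14.2 ± 0.539 TPM and Hdac4 13.4 ± 0.713 TPM, and the libraries of the genes overlapped. On the same basis Hdac9 had 7.43 ± 0.190 TPM and Hdac7 6.01 ± 1.17 TPM. That made Hdac7 the lowest of the class in the first quantification. In the second, transcripts not annotated as coding took 23.6% of 11.3 TPM for Hdac7 and 16.2% of 8.86 TPM for Hdac9. They took 51.6% of 39.9 TPM for Hdac5 and 17.7% of 20.1 TPM for Hdac4. What remained left Hdac9 below Hdac7 and Hdac4 below Hdac5 there. The order of Hdac7 and Hdac9 over coding transcripts was thus not settled.

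The class IIb and IV deacetylases were low. Hdac11, the class IV member, had 6.03 TPM in replicate 2 and 5.91 TPM in replicate 1. The tubulin deacetylase Hdac6 averaged 3.66 ± 0.474 TPM. Hdac10, which acts on polyamines, had 2.66 TPM in replicate 2 and 2.91 TPM in replicate 1. The 3 genes summed to 12.4 ± 0.382 TPM, the lowest sum of the 11 families described here.

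Sirtuins are deacylases that consume NAD, and they act in different compartments. Sirt2, largely cytoplasmic, led with 30.7 TPM in replicate 2 and 32.3 TPM in replicate 1. The mitochondrial deacetylase Sirt3 averaged 22.6 ± 0.290 TPM and the mitochondrial desuccinylase Sirt5 20.2 ± 0.113 TPM. Sirt4, the other mitochondrial sirtuin, was lower at 7.16 ± 0.919 TPM, of which 69.2% was assigned to transcripts not annotated as coding, and Sirt3 held 76.0 ± 2.11% of their pair. By gene TPM the nuclear members were lower still: Sirt1 averaged 4.39 ± 0.240 TPM and Sirt7 3.74 ± 0.163 TPM. Sirt6 was the lowest by gene TPM, with 2.60 TPM in replicate 2 and 2.55 TPM in replicate 1. Over transcripts annotated as protein-coding alone, Sirt4 had 2.15 ± 0.567 TPM and Sirt1 2.62 ± 0.713 TPM. Sirt6 then had 2.58 ± 0.0354 TPM and Sirt7 1.86 ± 0.535 TPM, so that order did not hold in the first quantification. In the second, transcripts not annotated as coding took 19.9% of 5.83 TPM for Sirt4 and 16.8% of 4.95 TPM for Sirt1. That left Sirt4 above Sirt1 over coding transcripts. Sirt7, with 69.7% of 5.20 TPM in such transcripts, stayed below Sirt6, with 3.23% of 3.25 TPM. Sirt2 held 87.7 ± 0.973% of the pair with Sirt1.

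SWI/SNF, or BAF, complexes slide and eject nucleosomes with one of the ATPases Smarca2 (BRM) or Smarca4 (BRG1). All 9 subunits were detected, with a median of 18.6 TPM. Smarca2 had 26.1 TPM in replicate 2 and 23.0 TPM in replicate 1, and Smarca4 had 18.5 TPM in replicate 2 and 18.6 TPM in replicate 1. Smarca2 therefore held 56.9 ± 2.25% of the ATPase TPM, but 46.9% of their expected counts, which are not corrected for length. By gene TPM the values of the ATPases did not overlap between the genes in these libraries. Over transcripts annotated as protein-coding alone, the first quantification gave Smarca2 13.7 ± 0.612 TPM and Smarca4 18.6 ± 0.0354 TPM. That is the reverse of their order by gene TPM. In the second quantification, transcripts not annotated as coding took 34.0% of 36.3 TPM of Smarca2 in replicate 2 and 38.9% of 32.8 TPM in replicate 1. Smarca4 had 20.5 TPM in replicate 2 and 21.1 TPM in replicate 1 there, with 0% in such transcripts. Over coding transcripts Smarca2 thus lay above Smarca4 in replicate 2 and below it in replicate 1, so the reversal was not settled.

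Of the scaffold pair, Smarcc2 (BAF170) was the highest SWI/SNF subunit by gene TPM, with 29.8 TPM in replicate 2 and 28.2 TPM in replicate 1. Smarcc1 (BAF155) was listed at 9.89 TPM in both libraries, leaving Smarcc2 74.6 ± 0.721% of the pair. Among the alternative BAF60 subunits, Smarcd3 (BAF60c), known for its role in heart development, had 22.8 TPM in replicate 2 and 27.1 TPM in replicate 1. Smarcd1 (BAF60a) averaged 8.10 ± 0.170 TPM, and Smarcd2 (BAF60b) had 7.18 TPM in replicate 2 and 7.52 TPM in replicate 1. Smarcd3 held 75.4 ± 1.90% against Smarcd1 and 77.2 ± 1.60% against Smarcd2. The core subunits Smarce1 and Smarcb1 averaged 18.9 ± 2.38 and 8.23 ± 1.15 TPM.

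Smarcd3 shares 2466 exonic bases with Chpf2, a chondroitin-synthesis gene on the opposite strand with 4.12 TPM on average. Of its 31-base words, on either strand, 45.7% occur in Chpf2, the highest share of any of the 66 genes. That share was under 5% in 47 of the 66 and at least 20% in 5, which were Smarcd3, Hdac1, Smarca5, Dnmt3c and Hdac4. Exons of 28 members overlap another gene, of 21 on the opposite strand, and in 8 of those the other gene averaged at least 1 TPM. Whether the authors' counting used the strand is not given in the sources used here, so reads of the shared stretch cannot be told apart without that setting. Its leading transcript, Smarcd3-201, took 90.6 ± 1.45% of Smarcd3 TPM in the first quantification and 94.2 ± 0.429% in the second.

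Among the other SNF2-type ATPases, Smarca5 (SNF2H), the widely expressed ISWI motor, had 15.9 TPM in replicate 2 and 16.2 TPM in replicate 1. Its relative Smarca1 (SNF2L), known from neural tissue, had 0.40 TPM in replicate 2 and 0.55 TPM in replicate 1, from 38 counts in replicate 2 and 67 in replicate 1. Smarca5 held 97.1 ± 0.586% of that pair. Smarcal1, which rewinds DNA at stalled replication forks, averaged 9.69 ± 0.0707 TPM, and Smarcad1 averaged 7.02 ± 0.431 TPM.

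**Figure D2:**
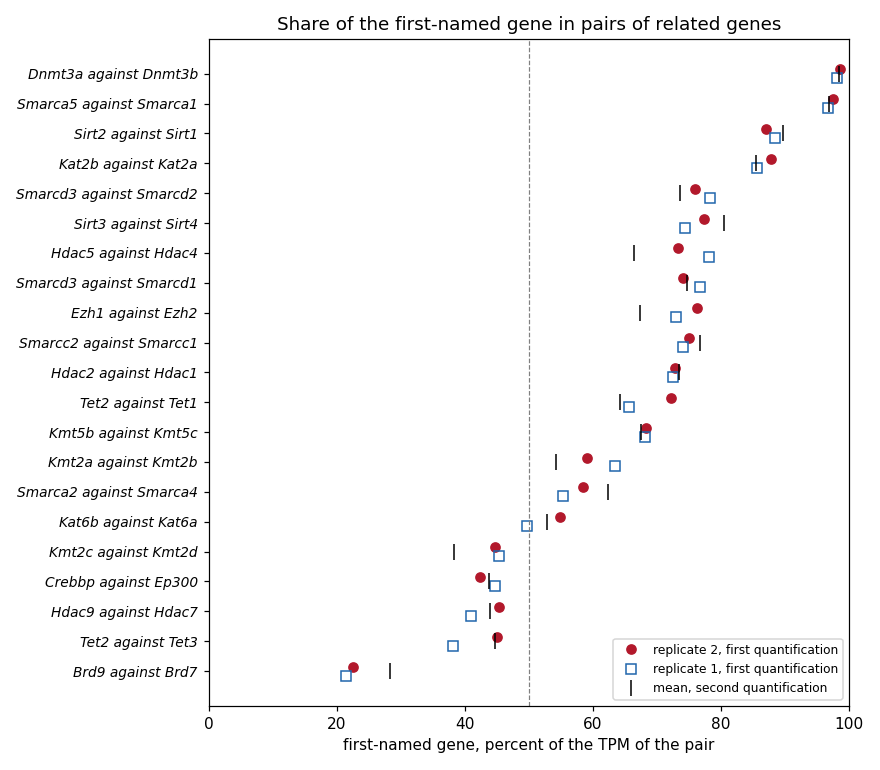
Share of the first-named gene in the summed TPM of each pair, in percent, with replicate 2 as filled circles, replicate 1 as open squares and the mean of the second quantification as a bar. The first-named gene lay above 50% in both libraries in 15 pairs; Kat6b straddled the line, at 54.8% in replicate 2 and 49.8% in replicate 1.

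Bromodomain proteins read acetylated lysines. The BET gene Brd2 was highest by gene TPM, with 31.4 TPM in replicate 2 and 29.0 TPM in replicate 1. Of its TPM, 47.6% in the first quantification and 50.2% in the second was assigned to transcripts not annotated as coding. Over coding transcripts alone, the first quantification gave Brd2 15.8 ± 0.346 TPM, Brd7 12.5 ± 1.36 TPM, Brd3 10.5 ± 1.05 TPM and Brd1 10.4 ± 0.827 TPM. The ranking by gene TPM therefore does not carry over to coding transcripts. Its relative Brd3 averaged 11.6 ± 0.891 TPM. Brd7, a subunit of the PBAF form of SWI/SNF, averaged 26.8 ± 1.81 TPM. Brd9, the subunit of the non-canonical BAF complex, was the lowest of the family in the first quantification. It had 7.42 TPM in replicate 2 and 7.71 TPM in replicate 1. In the second quantification its mean of 11.8 TPM was above those of Brd3 at 9.56 TPM and Brd8 at 8.34 TPM. Brd9 held 22.03 ± 0.695% of the pair with Brd7, and 28.4% in the second quantification. The acetyltransferase-complex subunits Brd1 and Brd8 averaged 11.6 ± 1.65 and 9.46 ± 0.523 TPM.

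All 10 lysine acetyltransferase genes were detected. Kat2b (PCAF) was highest, with 33.7 TPM in replicate 2 and 29.3 TPM in replicate 1. Its paralogue Kat2a (GCN5) was lowest, with 4.68 TPM in replicate 2 and 4.93 TPM in replicate 1, so Kat2b held 86.7 ± 1.57% of the pair. The coactivator Ep300 had 19.8 TPM in replicate 2 and 17.3 TPM in replicate 1, above Crebbp with 14.6 TPM in replicate 2 and 13.99 TPM in replicate 1. Crebbp held 43.6 ± 1.58% of their TPM but 56.2% of their expected counts. Over transcripts annotated as protein-coding alone, the first quantification gave Ep300 11.5 ± 0.184 TPM and Crebbp 14.1 ± 0.389 TPM. The order of the 2 genes was thus not settled.

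The MYST acetyltransferases other than Kat8 lay close together by gene TPM. Kat7 (HBO1) averaged 10.9 ± 1.34 TPM, Kat6b (MORF) 10.3 ± 0.721 TPM, Kat5 (TIP60) 9.98 ± 1.34 TPM and Kat6a (MOZ) 9.35 ± 0.679 TPM, and the ranges of neighbours in that order overlapped. Kat6b held 52.3 ± 3.57% of the pair with Kat6a by TPM and 31.4% by expected counts, so their order was not settled. Kat8 (MOF), which acetylates histone H4, was lower at 4.98 ± 0.0283 TPM. Kat14, a subunit of the ATAC complex, averaged 8.32 ± 0.0919 TPM.

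Kmt5a, which monomethylates histone H4 and is known from dividing cells, was the highest of all 66 genes. It had 68.9 TPM in replicate 2 and 83.5 TPM in replicate 1, ranking 732nd among protein-coding genes (ENSMUSG00000049327.17, chromosome 5, 124439930 to 124462308, plus strand). The markers of proliferating cells, Mki67, Top2a and Ccna2, summed to 3.38 TPM in replicate 2 and 3.80 TPM in replicate 1 in the same RNA. Kmt5b and Kmt5c, which add further methyl groups to the same residue, averaged 12.3 ± 0.0141 and 5.75 ± 0.0071 TPM, with Kmt5b at 68.2 ± 0.0516% of their pair.

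The MLL-type H3 methyltransferases were at medium levels. Kmt2d averaged 20.7 ± 0.233 TPM and its enhancer partner Kmt2c 16.9 ± 0.523 TPM, which left Kmt2c 45.0 ± 0.486% of the pair. Kmt2e, a relative in the same family, averaged 17.6 ± 1.34 TPM. Kmt2a (MLL1) averaged 10.7 ± 0.0354 TPM and Kmt2b 6.79 ± 0.863 TPM, with Kmt2a at 61.3 ± 3.10% of the pair and 54.2% in the second quantification.

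Ezh1 and Ezh2 are the alternative catalytic subunits of Polycomb repressive complex 2, and Ezh2 is known as the form of dividing cells. Ezh1 had 13.2 TPM in replicate 2 and 12.8 TPM in replicate 1. Ezh2 was the lowest of the 10 Kmt and Ezh genes in the first quantification, with 4.11 TPM in replicate 2 and 4.76 TPM in replicate 1. Ezh1 held 74.6 ± 2.37% of the pair by TPM and 85.3% by expected counts. The second quantification gave Ezh1 67.3%. There Ezh2 stood higher, at 8.21 TPM in replicate 2 and 6.85 TPM in replicate 1, and its mean of 7.53 TPM was above that of Kmt2b at 7.37 TPM.

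The DNA methyltransferases were the family with the most members under 1 TPM. The de novo enzyme Dnmt3a had 27.3 TPM in replicate 2 and 26.9 TPM in replicate 1 and was far above the rest. Dnmt1, which copies methylation after replication, averaged 4.93 ± 0.0354 TPM. Dnmt3b, the second de novo enzyme, had 0.40 TPM in replicate 2 and 0.50 TPM in replicate 1, from 39 counts in replicate 2 and 47 in replicate 1, so Dnmt3a held 98.4 ± 0.268% of their pair. Dnmt3l, a germline cofactor without catalytic activity, had 1 count (0.03 TPM) in replicate 2 and 5 counts (0.14 TPM) in replicate 1. Dnmt3c, the rodent enzyme of the male germline, had 0 counts in both libraries, which allows up to 3 counts, or 0.0786 CPM (counts scaled to the library total) in replicate 2 and 0.0772 CPM in replicate 1. All such limits and the intervals below describe counting error alone, because no molecular identifiers separate molecules from their copies.

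The TET dioxygenases oxidise methylated cytosine. Tet3 was the highest, with 9.96 TPM in replicate 2 and 10.6 TPM in replicate 1. Tet2 averaged 7.37 ± 1.17 TPM and held 41.7 ± 4.86% of the pair with Tet3 and 68.9 ± 4.64% of the pair with Tet1. Tet1, known from stem and germ cells, had 3.15 TPM in replicate 2 and 3.42 TPM in replicate 1.

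The substrate of the DNA methyltransferases, the CG dinucleotide, was counted in the RefSeq promoters of the members (build GRCm38.p6, 250 bases before to 50 bases after a start). Of the 66 genes, 56 were matched, 43 of them within 100 bases of the start of the leading coding transcript. They held a median of 24 CG dinucleotides per 300 bases, against 14 in the 16530 matched protein-coding genes and 22 in those 8823 with a mean of at least 1 TPM. The ratio of observed to expected CG was at least 0.6 in 47 of 56 (83.9%), against 50.3% of all and 75.4% of expressed genes. The 250 bases upstream are shown for Dnmt3a, Dnmt3b and Dnmt3l, which span the levels of the DNA methyltransferases. They are also shown for Hdac9, a detected gene whose matched window holds few CG, and for Kmt5a, the highest member. Capitals mark CG, and each is written 5′ to 3′ on the gene's own strand. The windows are chr12:3806730-3806979 (plus), chr2:153649199-153649448 (plus), chr10:78055085-78055334 (plus), chr12:34528890-34529139 (minus) and chr5:124439680-124439929 (plus), in that order.
Dnmt3a: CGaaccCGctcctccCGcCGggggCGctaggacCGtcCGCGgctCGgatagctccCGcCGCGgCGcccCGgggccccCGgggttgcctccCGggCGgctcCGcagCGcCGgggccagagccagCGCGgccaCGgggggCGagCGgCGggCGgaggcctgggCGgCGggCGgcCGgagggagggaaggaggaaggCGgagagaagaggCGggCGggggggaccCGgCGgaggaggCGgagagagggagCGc
Dnmt3b: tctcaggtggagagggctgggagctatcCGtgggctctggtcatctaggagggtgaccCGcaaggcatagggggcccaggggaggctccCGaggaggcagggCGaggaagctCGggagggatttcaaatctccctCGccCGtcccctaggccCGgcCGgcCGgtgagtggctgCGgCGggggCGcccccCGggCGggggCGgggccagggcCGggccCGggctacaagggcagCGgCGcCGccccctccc
Dnmt3l: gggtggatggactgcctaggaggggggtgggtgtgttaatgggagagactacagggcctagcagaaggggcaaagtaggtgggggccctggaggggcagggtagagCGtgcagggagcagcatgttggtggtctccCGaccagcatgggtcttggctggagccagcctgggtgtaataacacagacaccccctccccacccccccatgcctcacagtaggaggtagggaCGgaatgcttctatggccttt
Hdac9: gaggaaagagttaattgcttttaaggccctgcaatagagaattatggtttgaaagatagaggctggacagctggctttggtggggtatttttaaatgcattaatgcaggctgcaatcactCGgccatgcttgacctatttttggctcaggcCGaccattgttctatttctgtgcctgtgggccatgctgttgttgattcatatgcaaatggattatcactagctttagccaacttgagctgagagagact
Kmt5a: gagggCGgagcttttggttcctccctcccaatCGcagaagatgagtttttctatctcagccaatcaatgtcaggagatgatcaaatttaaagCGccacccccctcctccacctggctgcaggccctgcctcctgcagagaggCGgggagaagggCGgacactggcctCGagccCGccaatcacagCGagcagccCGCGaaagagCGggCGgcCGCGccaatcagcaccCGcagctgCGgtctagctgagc

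The upstream stretch of Dnmt3a held 38 CG and that of Dnmt3b, expressed at 0.450 ± 0.0707 TPM, held 21. Dnmt3l, near absence, held 3, but Hdac9 with 2 was detected at 7.86 ± 0.283 TPM, and Kmt5a, the highest in level, held 16. These 5 genes were chosen by family, level or number of CG, so they cannot show whether the number of CG follows the level. Levels are totals over all starts of a gene, and the start behind the reads was not measured. Motifs were searched on both strands of the 300 bases, and a match describes letters only. The TATA box letters TATAAA occurred in 2 of 56 members (3.57%), against 12.9% of all and 6.73% of expressed promoters, and CCAAT in 18 (32.1%), against 38.7% of all and 38.8% of expressed promoters. The ETS letters CCGGAAG occurred in 8 (14.3%), against 12.4% of all and 19.4% of expressed, the E-box CACGTG in 3 (5.36%), against 8.12% of all and 10.5% of expressed, and the NRF1 letters GCGCATGCG in 5 (8.93%), against 2.55% of all and 3.99% of expressed.

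The 2 hearts matched closely in these genes, as they did over detected protein-coding genes. Across the 62 detected members, a description over genes that are not independent replicates, log2(TPM + 1) of the libraries gave Pearson's r of 0.990 and Spearman's rho of 0.985, against 0.992 and 0.988 over detected protein-coding genes. All 62 lay within 1.5-fold in TPM of the first quantification, against 96.3% of detected protein-coding genes. In the second, Smarcad1 had 12.6 TPM in replicate 2 and 8.08 TPM in replicate 1. Smarce1 had 16.4 TPM in replicate 2 and 24.7 TPM in replicate 1 there, so both genes lay past 1.5-fold. Counts were compared gene by gene with an exact two-sided binomial test against TMM library sizes, a comparison of the reads in these libraries rather than of conditions. Of 66 members, 64 had the summed count of at least 50 needed for testing. At 2-fold or more with an adjusted p under 0.05, 0 members were called, where 1.53% of 13745 genes were called, 0.546% higher and 0.982% lower in replicate 2. The exact test of edgeR was also run, with a common dispersion estimated from the differences between these same libraries. That dispersion takes in the differences under test, so its outcome cannot show whether the hearts match. Nothing is drawn from it here.

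At any fold, counting noise alone was exceeded by 19 members (29.7%), 15 higher and 4 lower in replicate 2, against 21.9% of all genes, 10% higher and 11.8% lower. These shares are not on an equal footing, because the test calls smaller differences at higher counts. The median summed count was 2184 in tested members and 916 in all tested genes. Their median absolute log2 ratios were 0.108 in members and 0.125 in all tested genes. The differences were small: log2 ratios ran between 0.09 and 0.28 in those higher and between -0.21 and -0.13 in those lower in replicate 2. The split rests on the scaling. It was 12 higher and 5 lower with DESeq2 size factors, 6 higher and 10 lower with total mouse counts, and 48 higher and 0 lower with spike-in totals, where the median ratio over all genes was 0.24. The members' median log2 ratio was 0.05 with TMM against 0.00 for all genes, 0.30 against 0.24 with spike-ins, and -0.02 against -0.08 with total counts.

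Ezh1 had the largest ratio among those past the threshold, with 1583 counts in replicate 2 and 1399 in replicate 1, a log2 ratio of 0.28 (95% interval 0.18 to 0.39, adjusted p = 1.87e-06, exact binomial test). Smarca2 followed with 3017 counts in replicate 2 and 2674 in replicate 1, a log2 ratio of 0.28 (adjusted p = 1.32e-11, exact binomial test). Of the 2 lower ratios that lie furthest from 0, Hdac7 had 915 counts in replicate 2 and 1140 in replicate 1 (log2 ratio -0.21, adjusted p = 0.00593, exact binomial test). The other was Smarcd3, with 1094 counts in replicate 2 and 1321 in replicate 1 (log2 ratio -0.17, adjusted p = 0.0225, exact binomial test).

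The next largest ratios were all higher in replicate 2. Hdac6 had 454 counts in replicate 2 and 406 in replicate 1 (log2 ratio 0.26), and Brd8 had 797 counts in replicate 2 and 718 in replicate 1 (0.25). Tet2 had 1214 counts in replicate 2 and 1100 in replicate 1 (0.24 on the log2 scale), and Hdac4 had 1752 counts in replicate 2 and 1601 in replicate 1 (0.23). Of the 19 genes, 16 also passed in the same direction on the counts of the second quantification, and Hdac6, Kat6b and Brd7 did not.

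**Figure D3:**
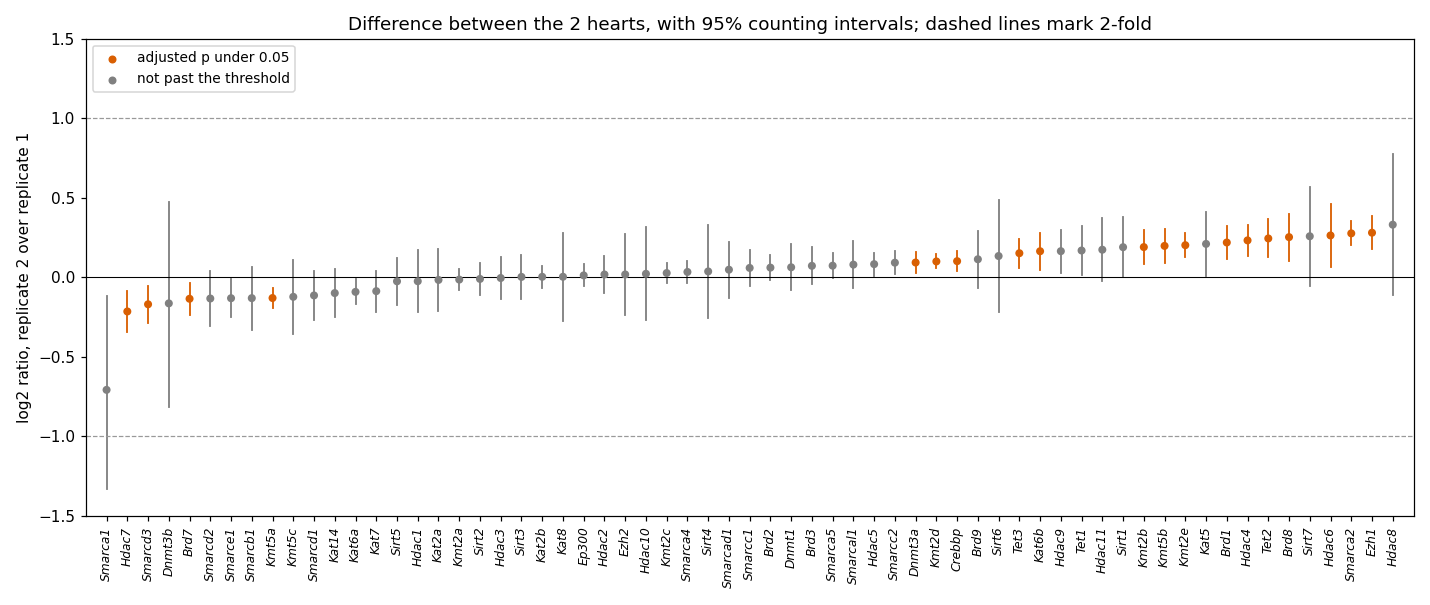
Log2 ratio of replicate 2 over replicate 1 for tested members after TMM scaling, sorted, with exact 95% counting intervals as vertical lines; orange marks an adjusted p under 0.05. Every point lies within the dashed lines at 2-fold, and Smarca1, at 38 counts in replicate 2 and 67 in replicate 1, has the lowest ratio with an interval that crosses one of them.

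After TMM scaling, the members called at any fold were mostly long genes, though the test calls smaller differences at higher counts. Split at the median length of 3138 bases, a split chosen after the values were seen, the 32 longer members had a median log2 ratio of 0.10, with 14 higher and 1 lower in replicate 2. The 32 shorter members had a median of 0.00, with 1 higher and 3 lower. Protein-coding genes at least that long had a median of 0.01, and shorter ones -0.01. Of the longer 28.4% and of the shorter 19.4% were called in either direction. The split by length was not recomputed under other scalings, and with total mouse counts 6 members were higher and 10 lower. Counts were not matched between the longer and shorter genes. Mitochondrial genes took 31.7% of counts in replicate 2 and 29.2% in replicate 1, and haemoglobin 0.495% in replicate 2 and 1.55% in replicate 1. The part of these differences in the members' ratios was not tested.

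A large part of the RNA of several members was assigned to transcripts that are not annotated as protein-coding, such as retained introns and targets of nonsense-mediated decay. The median share was 10.2% of TPM in the first quantification and 19.1% in the second for the 62 detected members, against 6.41% in the first and 8.07% in the second for protein-coding genes with a mean of at least 1 TPM. Members have a median of 9 annotated transcripts, and those genes 5. In 15 of the 62 members the share was over 25% in both quantifications, against 17.3% of those protein-coding genes.

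Hdac5 and Brd7 were the members whose mean share was over 50% in both quantifications, 2 of 62, against 5.15% of protein-coding genes. For Hdac5 the share was 73.2% in replicate 2 and 72.7% in replicate 1, and 49.6% in replicate 2 and 53.7% in replicate 1 in the second quantification. Its retained introns alone took 51.3% in the first quantification and 33.3% in the second. The short retained-intron form Hdac5-211 led at 20.5 ± 3.09% in the first quantification, next to the coding Hdac5-204 at 20.1 ± 0.685%. In the second quantification Hdac5-204 led at 38.4 ± 2.20%, with Hdac5-211 at 0.408 ± 0.578%. Of its 52.4 ± 1.28 TPM, 14.2 ± 0.539 TPM were in coding transcripts. For Brd7 the share was 54.7% in replicate 2 and 52.0% in replicate 1, and 53.2% in replicate 2 and 48.7% in replicate 1 in the second quantification, with few retained introns (1.18% in the first).

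**Figure D4:**
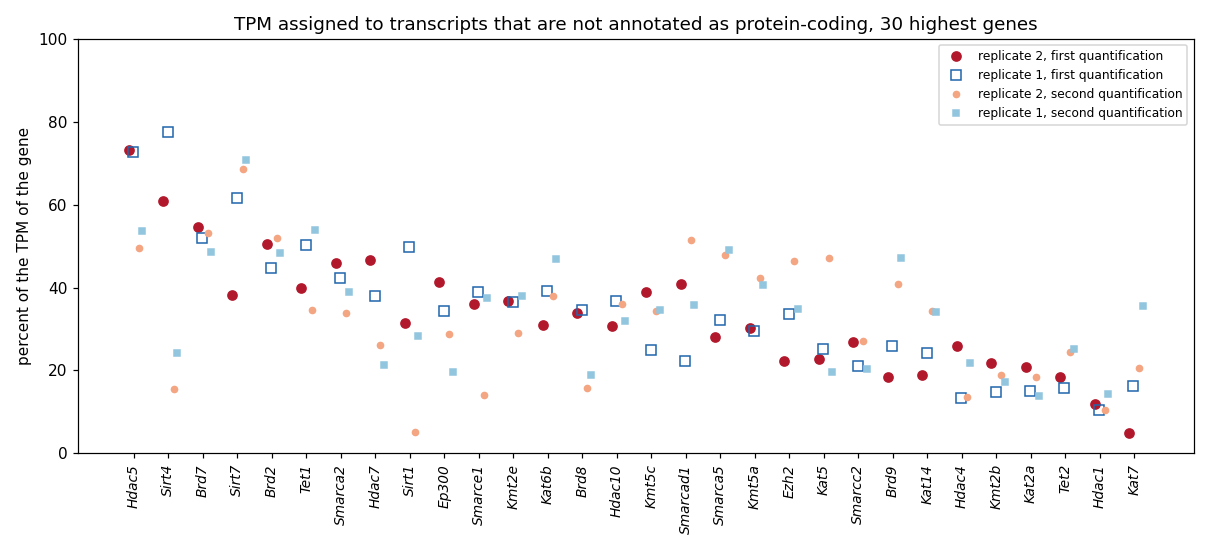
Percent of each gene's TPM that was assigned to transcripts not annotated as protein-coding, for the 30 members with the highest mean share in the first quantification, with replicate 2 and replicate 1 drawn separately for both quantifications. Hdac5 lies highest in the first quantification, at 73.2% in replicate 2 and 72.7% in replicate 1, and Sirt4 had a mean of 69.2% in the first quantification and 19.9% in the second.

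The leading transcript, the one with the highest mean TPM, was the same in both quantifications for 49 of 62 members. It took over 50% of the gene in both for 25 of them, and over 90% in both for Smarcd3-201 and Kat6a-201. The 13 members with different leaders, in order of level, were Hdac5, Sirt2, Sirt3, Hdac4, Brd3, Hdac7, Kat6b, Kat5, Tet2, Sirt4, Kmt5c, Sirt7 and Hdac6. For Sirt3, Sirt3-202 took 72.9 ± 0.605% in the first quantification and 0.0139 ± 0.0197% in the second. There Sirt3-201, which starts further upstream, took 89.7 ± 1.53%. Exons of Sirt3 overlap those of Psmd13 and Ric8a on the opposite strand, at 33.5 and 8.25 TPM.

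Sirt2-202 led with 77.7 ± 5.85% in the first quantification and Sirt2-201 with 50.2 ± 14.8% in the second. For Brd3, Brd3-202 led with 51.4 ± 14.7% in the first and took 6.1e-06% in the second, where Brd3-201 led with 78.7 ± 0.692% after 3.97% in the first. Retained introns led in the first quantification for Hdac7 (Hdac7-211, 24.0 ± 2.76%) and Sirt4 (Sirt4-206, 34.6 ± 6.78%), while coding transcripts led in the second, Hdac7-202 at 34.8 ± 2.97% and Sirt4-202 at 67.4 ± 7.46%. Hdac4-202 and Hdac4-205 were close in both, at 30.7 ± 3.72% and 24.9 ± 6.69% in the first quantification. In the second they took 27.4 ± 1.43% and 28.6 ± 4.25%. Tet1, named after its values were seen, was led in both by the processed transcript Tet1-202, with 45.1 ± 7.41% in the first and 38.1 ± 4.99% in the second.

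Kat6b-210 led Kat6b at 21.38 ± 6.999% in the first quantification and Kat6b-204 at 33.5 ± 0.185% in the second. The leaders of Kat5 were Kat5-202 at 35.2 ± 7.70% in the first and Kat5-201 at 31.4 ± 0.948% in the second. Tet2 was led by Tet2-205 at 33.4 ± 2.13% in the first and by Tet2-204 at 37.5 ± 8.68% in the second. For Kmt5c, Kmt5c-203 led at 34.5 ± 11.8% in the first and Kmt5c-202 at 25.4 ± 2.15% in the second. Sirt7-201 led Sirt7 at 45.7 ± 16.9% in the first, and the processed transcript Sirt7-211 at 24.0 ± 24.6% in the second, where the SD exceeds the mean. Which transcript leads is thus unsettled for these genes.

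For Dnmt3a the transcripts Dnmt3a-201 and Dnmt3a-204, which start at positions 3807030 and 3807058, took 27.0 ± 3.83% and 26.7 ± 4.51% in the first quantification. The second gave them 26.8 ± 0.474% and 19.1 ± 5.42%. Dnmt3a-206, which starts further upstream at 3806527, took 18.1 ± 3.19% in the first and 0% in the second. Dnmt3a-205 and Dnmt3a-203, which start at positions 3891728 and 3891744 within the gene, took 9.08 ± 2.02% and 8.61 ± 0.370% in the first and, in the other quantification, 13.997 ± 0.414% and 0%. Dnmt1-201 led Dnmt1 with 73.5 ± 0.621% in the first and 45.5 ± 8.54% in the second.

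Smarca4-204 led Smarca4 with 59.5 ± 3.54% in the first and 71.8 ± 0.424% in the second. Ezh2-201 led Ezh2 with 38.4 ± 3.25% in the first and 27.8 ± 5.22% in the second. Hdac9-201 led Hdac9 with 62.4 ± 0.872% in the first and 55.6 ± 3.37% in the second.

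Levels from the first and second quantifications kept nearly the same order, with Spearman's rho of 0.960 over the 62 genes, a description. The second gave the higher mean in 55 of 62, with a median log2 ratio of first over second of -0.26, against -0.22 over detected protein-coding genes. In 58 of 62 the quantifications lay within 1.5-fold, and Hdac8 was furthest apart at 1.78-fold.

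The partners of these enzymes were present as well. Of 177 genes in 10 lists of related chromatin factors, 165 were detected, 172 were tested, 34 were higher and 7 lower in replicate 2 at any fold after TMM scaling (23.8%), against 21.9% of all genes, 10% higher and 11.8% lower. At 2-fold 0 were called, against 1.53% of all genes, and the split was not recomputed under other scalings. Among the other BAF subunits, Dpf2 was highest at 29.8 ± 3.46 TPM, and the neuronal subunit Actl6b was listed at 0. In the NuRD and CHD list, the histone-binding Rbbp7 led at 61.3 ± 1.83 TPM, and Chd5 was lowest at 0.21 TPM in both libraries. Znhit1 led the INO80 and SRCAP list at 24.0 ± 0.629 TPM and Actr5 was lowest at 2.43 ± 0.276 TPM. Of the Polycomb genes Pcgf5 was highest at 26.1 ± 1.87 TPM, and Phf19 lowest at 0.575 ± 0.417 TPM.

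Among the other histone methyltransferases, Smyd1, the muscle-restricted enzyme, averaged 133 ± 9.39 TPM and exceeded every one of the 66 members, while Suv39h2 was lowest at 0.285 ± 0.0071 TPM. Histone demethylases ranged between Kdm5c at 19.1 ± 1.57 TPM and Riox1 at 2.08 ± 0.219 TPM. Prmt1, the main arginine methyltransferase, led its list at 39.8 ± 3.38 TPM, and the brain form Prmt8 was listed at 0. Kansl2 led the COMPASS and acetyltransferase partners at 29.9 ± 1.79 TPM, with Jade3 lowest at 0.825 ± 0.219 TPM. The corepressor Ncor1, which carries Hdac3, averaged 45.3 ± 3.55 TPM, and Rcor2 was lowest of its list at 2.63 ± 0.255 TPM. Of the methyl-CpG readers, Zbtb4 was highest at 16.2 ± 0.905 TPM and Mbd4 lowest at 0.440 ± 0.0283 TPM.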

How the data were processed

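Total RNA-seq of 2 hearts was analysed from the authors' processed tables, made against mm10 and GENCODE M21 according to the deposited READMEs. The aligner is not given in the sources used here, nor is any program version. The gene table of the first quantification holds the deposited expected counts per gene (estimated, not normalized) and the authors' TPM and FPKM, per the file headers; the second is a transcript table with estimated counts and TPM, summed here per gene. The columns are those RSEM and kallisto write. FPKM served only as an alternative for pair shares. Both used a C57BL/6J reference, so reads of the CAST allele carry mismatches, whose effect was not measured. Left out were 26248 rows named only by a number (3.89 counts in replicate 2, 2 in replicate 1) and, for mouse totals, 97 spike-in rows.

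Counts were rounded and tested with R 4.3.3 by an exact two-sided binomial test against TMM effective library sizes from edgeR 4.0.16. Benjamini-Hochberg adjustment covered the 13745 genes that summed to at least 50 counts. Log2 ratios have replicate 2 on top, after adding 0.5 to every count, with exact 95% intervals. One library a side leaves no residual degrees of freedom for a quasi-likelihood fit. The common dispersion over both libraries gave a biological coefficient of variation of 0.113. DESeq2 1.42.0 size factors, total counts, spike-in totals, other count filters, other fold thresholds and the second quantification were tried as alternatives. The p-values measure only the difference between these libraries. Nothing in the labels beyond separate biosamples and animal numbers shows that the replicates are separate animals, since the donor identifier is shared.

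Members, families, pairs and related lists were chosen with earlier results of these data known. Values of each library were printed for the highest and lowest gene of each family, for the 6 largest ratios past the threshold, for members under 1 TPM and for described pairs; transcripts were named for up to 12 members with differing or non-coding leaders and for a further set of chosen genes; other genes named, such as Hdac6 among the transcripts, were chosen after their values were seen. One member enters the counts and medians but its own values are not reported here. Python 3.11.15 and matplotlib 3.10.9 were used for the rest.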

Additional observations from a re-analysis of the deposited data

Results flagged for a closer look

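Pseudogenes whose names match members are outside the 66 genes, and 3 of them had counts above the 3-count limit in a library. Smarca5-ps had 0 expected counts in replicate 2 and 8.16 in replicate 1, Smarce1-ps1 had 2.18 in replicate 2 and 6.6 in replicate 1, and Kat2b-ps had 1.04 in replicate 2 and 4.21 in replicate 1. All were under 0.25 TPM in both libraries.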

How the results depend on the processing

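The number of detected members stayed at 62 with the second quantification, posterior mean TPM, a limit of 0.5 TPM and either library alone, and was 61 at 2 TPM. Members called at 2-fold stayed at 0 under every other normalization, count filter and quantification tried and at 1.5-fold, and became 19 at any fold. All genes called were 210, against 334 with a summed count of at least 10, 487 at 1.5-fold and 3006 at any fold. The members' median log2 ratio of 0.05 became 0.30 with spike-in totals, where the median of all genes was 0.24 (spike-ins took 0.427% of counts in replicate 2 and 0.532% in replicate 1), and -0.02 with total mouse counts. Of 22 pair shares, expected counts moved 19 by over 1 SD on the same side of 50% and put 3 across it, and the second quantification moved 13 and left 9 within 1 SD. FPKM, which only rescales TPM, and single libraries, which with 2 libraries lie within 1 SD of their mean, could not move a share further. By expected counts Smarca2 took 46.9%, Kat6b 31.4% and Crebbp 56.2% of their pairs, and Kat6b took 49.8% without replicate 2 and 54.8% without replicate 1. Expected counts are not corrected for length. Members with the same leading transcript numbered 49, and 51 without replicate 1 and 47 without replicate 2. No paired analysis was possible because both libraries belong to 1 group. With 2 libraries, a spread has 1 degree of freedom, and genes under 50 summed counts could not be compared.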
